A study of Mus musculus with 2 samples.

Results

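Intergenic open regions near genes were taken from ATAC-seq peak lists of mouse hepatic stellate cells. A region belonged to the set when an entry of replicate A overlapped an entry of replicate B by at least 1 bp, its centre lay outside all protein-coding gene bodies of mm10, and that centre was more than 1 kb but at most 50 kb from the nearest end of a protein-coding gene. The rule gave 4063 of the 23452 replicated peaks, or 17.3% (95% Wilson interval 16.8 to 17.8%). They are called intergenic peaks here. ATAC-seq marks open chromatin by the insertion of sequencing adapters with Tn5 transposase. The series holds 1 group of 2 samples, replicates A and B. It therefore has no contrast between conditions, and no p-value was made. Both came from healthy, chow-fed C57BL6/JBomTac mice with the allele Gt(ROSA)26Sortm1(mCherry-Rpl10a-Flop)Kra and the transgene Tg(Lrat-cre)1Rshw, on a background given as B6.Cg, whose liver nuclei were dounced, purified on a gradient and sorted on mCherry-RPL10A. The nuclei sorted are therefore those of cells in which the Lrat-cre transgene was or had been active. No age is given. The labels do not say whether the replicates are different animals, and their spread may thus be technical. In the list of B the peak names start with a word for oil, but its label says chow and control, and the label was followed. Read depth is unknown, since peak lists hold no read counts, and every interval below covers counting error only.

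Distal enhancers are stretches of open chromatin away from promoters at which transcription factors bind, and they carry much of what differs between cell types. They can act on the nearest gene or on one farther away, so a nearest gene is an address and not a proven target. Open intergenic DNA also holds insulators, starts of noncoding RNA genes and genes read by RNA polymerase III. Hepatic stellate cells are the pericytes of the liver sinusoid. They store vitamin A as retinyl esters, and after injury they become matrix-producing myofibroblasts.

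Some of these regions are starts of long noncoding RNA (lncRNA) genes, and they are the ones for which sequence can be shown. RefSeq start windows of GRCm38.p6, which run from 250 bases before to 50 bases after a start, were laid over the peaks. Of the 59 lncRNA windows with 250 or more bases inside an intergenic peak, 6 are printed because they include the best-ranked and the best-known genes. Capitals mark GGAATG (TEAD) or CACGTG (E-box) read on either strand, and a window without capitals held no motif of the list searched. 5430416N02Rik, the best-ranked of them, has a window at chr5:100429486-100429785 on the minus strand, with all 300 bases in a peak. Dancr, an lncRNA known to hold back differentiation of progenitor cells, has its window at chr5:74092810-74093109 on the plus strand, with 294 bases in a peak. The windows of the small nucleolar RNA host genes Snhg8 and Snhg15 lie at chr3:123508287-123508586 and chr11:6528711-6529010, both on the minus strand. The window of Chaserr, which in mice restrains its neighbour Chd2, lies at chr7:73558346-73558645 on the minus strand. Mir22hg, the host transcript of miR-22, has its window at chr11:75461289-75461588 on the plus strand. The sequences run 5′ to 3′.
5430416N02Rik: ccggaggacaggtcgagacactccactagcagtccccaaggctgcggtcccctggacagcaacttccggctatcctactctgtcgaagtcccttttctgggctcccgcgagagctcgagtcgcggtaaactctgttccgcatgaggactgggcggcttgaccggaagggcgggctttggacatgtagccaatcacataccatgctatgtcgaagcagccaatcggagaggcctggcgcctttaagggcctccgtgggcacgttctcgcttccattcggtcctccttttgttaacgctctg
Dancr: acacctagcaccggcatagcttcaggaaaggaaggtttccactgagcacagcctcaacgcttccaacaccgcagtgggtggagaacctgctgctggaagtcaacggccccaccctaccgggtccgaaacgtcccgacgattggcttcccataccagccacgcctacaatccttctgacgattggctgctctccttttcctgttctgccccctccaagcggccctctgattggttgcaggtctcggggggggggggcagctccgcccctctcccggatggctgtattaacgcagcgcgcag
Snhg8: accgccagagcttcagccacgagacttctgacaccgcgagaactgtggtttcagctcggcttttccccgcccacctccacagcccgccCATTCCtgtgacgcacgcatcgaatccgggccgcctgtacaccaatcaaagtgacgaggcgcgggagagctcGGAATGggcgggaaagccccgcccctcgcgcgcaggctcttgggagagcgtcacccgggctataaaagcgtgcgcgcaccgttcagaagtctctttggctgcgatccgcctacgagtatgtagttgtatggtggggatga
Snhg15: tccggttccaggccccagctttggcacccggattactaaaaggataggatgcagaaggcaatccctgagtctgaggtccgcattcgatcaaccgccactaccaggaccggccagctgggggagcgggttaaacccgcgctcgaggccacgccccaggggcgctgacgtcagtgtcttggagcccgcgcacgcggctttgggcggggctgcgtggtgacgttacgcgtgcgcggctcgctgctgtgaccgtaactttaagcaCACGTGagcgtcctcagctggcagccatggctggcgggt
Chaserr: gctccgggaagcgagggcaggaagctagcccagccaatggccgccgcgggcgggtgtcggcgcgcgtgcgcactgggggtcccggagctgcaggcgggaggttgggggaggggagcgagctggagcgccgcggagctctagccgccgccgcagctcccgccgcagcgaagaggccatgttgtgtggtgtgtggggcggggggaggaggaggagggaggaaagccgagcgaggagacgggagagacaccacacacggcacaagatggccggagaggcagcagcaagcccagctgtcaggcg
Mir22hg: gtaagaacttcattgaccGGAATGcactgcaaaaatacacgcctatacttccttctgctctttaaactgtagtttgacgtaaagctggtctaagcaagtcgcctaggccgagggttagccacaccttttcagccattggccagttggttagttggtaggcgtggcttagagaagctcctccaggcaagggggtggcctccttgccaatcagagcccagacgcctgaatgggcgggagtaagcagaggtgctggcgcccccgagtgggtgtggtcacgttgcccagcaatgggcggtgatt

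MicroRNA genes also lay beside intergenic peaks. The mature RNAs of the best-known of these genes are shown with the seed (bases 2 to 8), the stretch that pairs with targets, in capitals. They are set in order of shared seed, from RefSeq GRCm38.p6. The let-7 RNAs, which promote differentiation, share the seed GAGGUAG. The 3p arms of miR-132 and miR-212 share AACAGUC, miR-17-5p and miR-20a-5p share AAAGUGC, and miR-19a-3p and miR-19b-3p share GUGCAAA. The last 4 belong to the miR-17-92 cluster, known for driving proliferation. The single ones are miR-22-3p, miR-21a-5p, which is raised in fibrosis of several organs, and miR-210-3p, which hypoxia induces.
mmu-let-7i-5p: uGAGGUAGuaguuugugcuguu
mmu-let-7b-5p: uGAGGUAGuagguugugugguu
mmu-let-7c-5p: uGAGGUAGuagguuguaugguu
mmu-miR-132-3p: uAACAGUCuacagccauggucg
mmu-miR-212-3p: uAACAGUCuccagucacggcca
mmu-miR-17-5p: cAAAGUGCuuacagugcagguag
mmu-miR-20a-5p: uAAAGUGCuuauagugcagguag
mmu-miR-19a-3p: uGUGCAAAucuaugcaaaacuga
mmu-miR-19b-3p: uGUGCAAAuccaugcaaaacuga
mmu-miR-22-3p: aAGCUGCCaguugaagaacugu
mmu-miR-21a-5p: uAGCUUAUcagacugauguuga
mmu-miR-210-3p: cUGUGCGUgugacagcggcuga

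Intergenic peaks were weaker than peaks at gene ends and about as strong as those inside genes. Strength is given as fold enrichment, the ratio over local background that the authors' peak caller wrote for each peak. Its median over the intergenic peaks was 11.1 in A (quartiles 8.73 and 14.1) and 9.35 in B (7.77 and 11.7). Replicated peaks within 1 kb of a gene end had medians of 14.4 in A and 13.0 in B. Inside gene bodies the medians were 10.8 and 9.42, and beyond 50 kb they were 10.6 and 9.55. The upper tail differed in the same way. In A, 343 intergenic peaks (8.44%) were in the top decile of all entries of A, replicated or not, against 28.9% of the replicated peaks at gene ends. In B, 151 (3.72%) were in the top decile of all entries of B, against 25.7% at gene ends. Intergenic peaks were compact, with a median width of 260 bp in A and 228 bp in B, and 199 (4.90%) were 500 bp or wider.

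**Figure D1:**
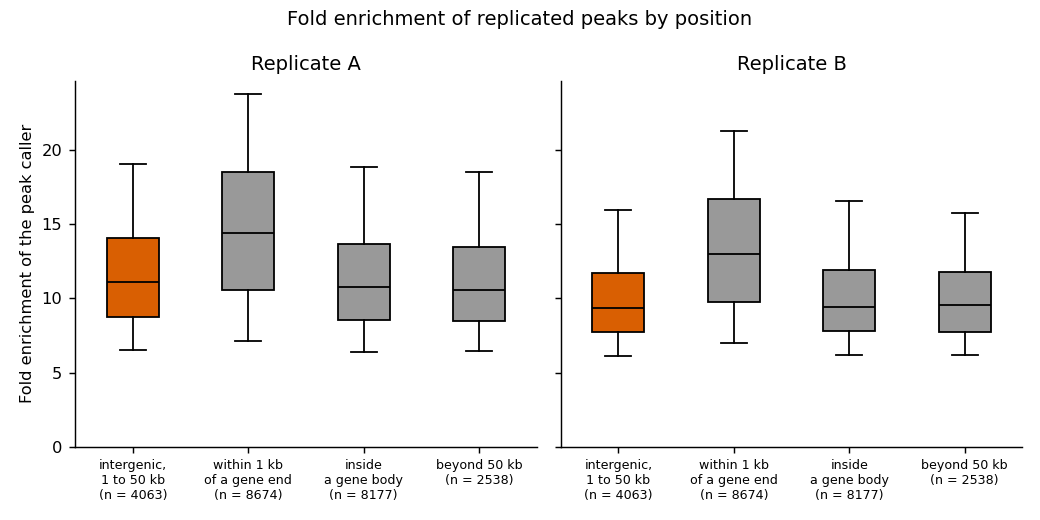
Fold enrichment (vertical axis, ratio over local background) of the replicated peaks in replicate A (left) and replicate B (right) by position, with intergenic peaks in orange. Boxes span the quartiles around the median and whiskers run from the 5th to the 95th percentile. The intergenic medians of 11.1 in A and 9.35 in B lie below those at gene ends, 14.4 and 13.0, and near those of the other classes.

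Entries in these positions overlapped the other list less often than entries at gene ends, from either replicate. Replicate A had 7448 entries 1 to 50 kb from a gene, and 54.6% (53.4 to 55.7%) overlapped an entry of B, against 83.9% at gene ends, 57.4% in gene bodies and 56.0% beyond 50 kb. Over the whole list of A the share was 64.1%. Of the 5120 entries of B in these positions, 79.7% (78.5 to 80.7%) overlapped A, against 90.5% at gene ends, 77.2% in gene bodies and 74.3% beyond 50 kb. Over the whole list of B the share was 81.7%. Strength went with this share. In the lowest quartile of A by −log10 q, 26.8% of the intergenic entries overlapped B, and in the highest quartile 94.6% did. At gene ends these shares were 44.8% and 99.2%. In B the lowest quartile gave 62.1% for the intergenic entries and 65.9% at gene ends, and the highest gave 99.2% and 99.5%. The 3385 intergenic entries of A without a partner had a median fold enrichment of 8.07 and a median width of 190 bp. The 1041 entries of B without a partner had 7.47 and 171 bp.

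Fold enrichment and summits were set side by side for the peaks found in both replicates. Across the 4063 intergenic peaks the Pearson correlation of fold enrichment was 0.638 and Spearman's was 0.580, as a description over peaks of the same pair of libraries. At gene ends the same measures were 0.766 and 0.757, and beyond 50 kb 0.619 and 0.524. The ratio of A to B had a median of 1.15 (quartiles 0.965 and 1.38), and 3944 peaks (97.1%) were within 2-fold. The values are not scaled between the libraries, so a ratio other than 1 need not be a difference in openness. Summits of the same peak lay a median of 26.0 bp apart, and 2972 (73.1%) lay within 50 bp. The shares within 2-fold and within 50 bp are descriptions, since the overlap rule keeps summits close and called values span a narrow range, from 6.52 to 19.1 in A and from 6.15 to 16 in B between their 5th and 95th percentiles.

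**Figure D2:**
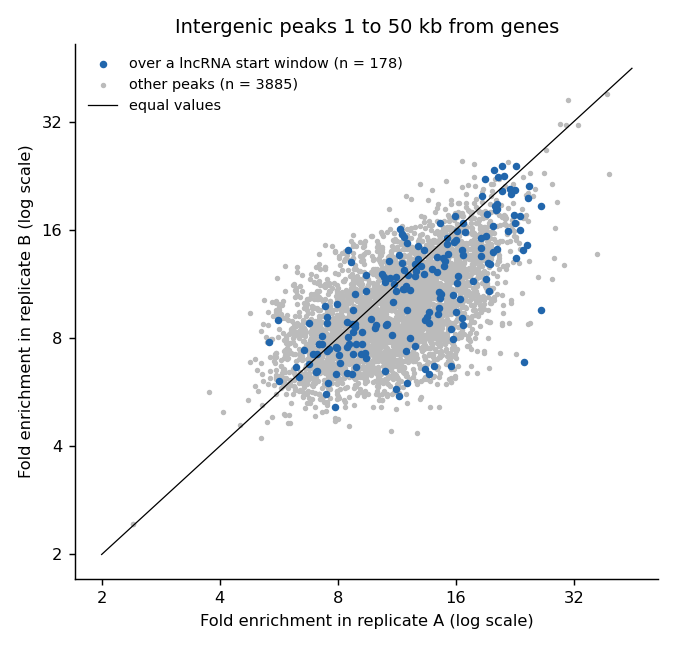
Fold enrichment of each intergenic peak in replicate A (horizontal axis, log scale) and replicate B (vertical axis, log scale), with the 178 peaks over a lncRNA start window in blue, the others, chromosome 18 included, in grey, and a line of equal values. The Pearson correlation is 0.638 for the values themselves and 0.609 for their logarithms, and the median ratio of A to B is 1.15.

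The peaks were spread over the flanks of genes with a mild excess close by. The median distance to the nearest gene end was 13.3 kb (quartiles 6.15 and 27.7 kb). Within 10 kb lay 1623 peaks (39.9%), against 35.6% of the 619 Mb that satisfy the position rule. The density was 6.56 per Mb over all of it, against 109 per Mb in the windows around gene ends and 8.27 per Mb in gene bodies. At 1 to 2 kb it was 8.39 per Mb (exact 95% Poisson interval 7.41 to 9.45), and at 20 to 30 kb it was 5.69 per Mb (5.24 to 6.17). The median fold enrichment in A was 10.3 at 1 to 2 kb, 10.9 at 2 to 5 kb and 11.3 at 5 to 10 kb. It was 11.3 at 10 to 20 kb and 11.4 at 20 to 30 kb, highest at 30 to 40 kb and 10.3 at 40 to 50 kb. In B the 7 medians lay between 8.87, at 1 to 2 kb, and 9.67, at 30 to 40 kb.

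Density also differed between the sides of the nearest gene at some distances. The nearest end was a transcription start for 1629 peaks and a termination site for 1509, while strand was not known for the other 925. Per Mb the sides were close, at 6.18 on the start side and 6.71 on the termination side. At 2 to 5 kb the start side held 5.12 peaks per Mb (4.40 to 5.94) and the termination side 8.40 (7.41 to 9.48), and these intervals did not overlap. At 30 to 40 kb the order was turned round, with 7.28 per Mb (6.40 to 8.24) on the start side and 5.30 (4.49 to 6.21) on the termination side. In the other bins the intervals of the sides overlapped. These intervals count each peak as independent, but 791 peaks (19.5%) had another within 5 kb, so they may be too narrow.

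**Figure D3:**
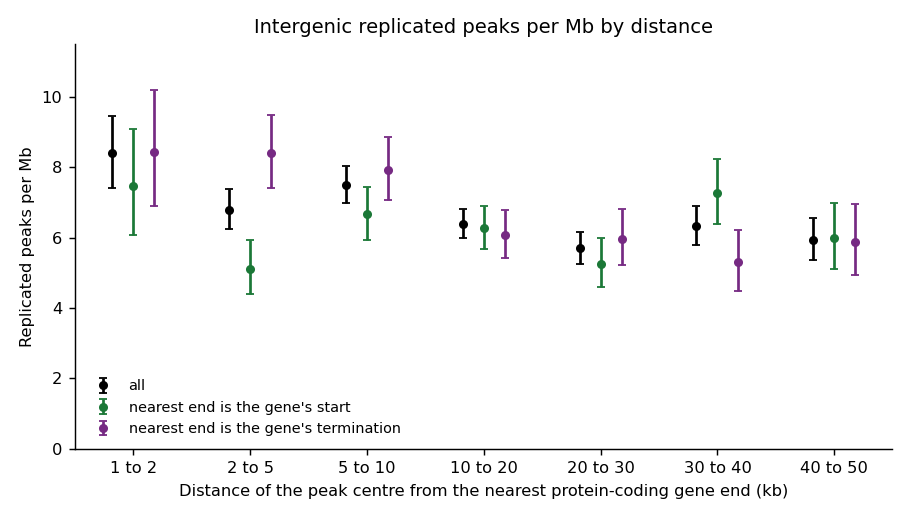
Intergenic replicated peaks per Mb (vertical axis) by distance of the peak centre from the nearest protein-coding gene end (horizontal axis, kb), for all peaks and by which end of the gene is nearest. Bars are exact 95% Poisson intervals of the counts, which treat each peak as independent. The sides separate at 2 to 5 kb, with 5.12 per Mb on the start side and 8.40 on the termination side, and again at 30 to 40 kb in the opposite order.

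Some intergenic peaks ranked among the strongest peaks of the series. The best mean rank belonged to chr2:69355477-69355718, whose fold enrichment was 38.8 in A and 38.2 in B. It ranked 6th of 36577 entries in A and 4th of 28794 in B. It lies 13.0 kb from the start of Abcb11, which encodes the bile salt export pump of hepatocytes. Next came chr10:96077551-96077906 with 32.8 in A and 31.3 in B, at 32.2 kb from the termination site of Eea1, an endosomal tether gene. The third, chrX:143482944-143483171, had 30.8 in A and 36.8 in B and lies 35.3 kb from the start of Pak3, a kinase gene. The fourth, chr11:88235229-88235568, had 30.5 in A and 31.2 in B and lies 23.9 kb from Mrps23, which encodes a protein of the mitochondrial ribosome. These 4 were chosen by their mean rank over A and B, and 3 of them lie more than 20 kb from any protein-coding gene end.

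The rest of the first 10 varied in how even they were between the replicates. The peak at chr6:49236393-49236673, 7.39 kb from the splicing factor gene Tra2a, was the highest of the intergenic peaks in A with 39.3 but had 22.9 in B. The peak beside Zbtb38, which encodes a protein that binds methylated DNA, had 28.2 in A and 21.4 in B. The peak 26.4 kb from Tead4, a transcription factor gene of the Hippo pathway, had 24.7 in A and 23.0 in B. Those nearest to Gxylt1 and Mcrs1 had 27.2 and 26.9 in A, against 26.6 and 23.0 in B. The one at chr9:35305621-35305649, nearest to Rpusd4, is 29 bp wide in A and 22 bp in B, with 29.4 in A and 31.6 in B, and such narrow entries are rare, since only 3 intergenic peaks are under 100 bp.

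A few peaks were uneven between the replicates. A peak 1.58 kb from Kpna1, a nuclear import gene, had 23.8 in A and 6.86 in B, a ratio of 3.47. One 45.9 kb from Sfswap, a splicing regulator gene, had 22.8 in A and 7.20 in B. One 12.3 kb from the start of P4ha1, which encodes the catalytic subunit of the prolyl hydroxylase that stabilises collagen, had 19.4 in A and 6.62 in B. In the other direction, the peak 20.2 kb from Msrb3 had 5.88 in A and 12.7 in B, a ratio of 0.463, and those nearest to Cibar2 and Dusp22 had ratios of 0.476 and 0.502. The widest entries, chr1:24612851-24616140 and chr1:24611581-24612620, are pieces of one called peak near Col19a1. At 2.40 in A and 2.43 in B they also had the lowest fold enrichment of all intergenic peaks. The widest other one was 811 bp, 6.90 kb from Mier3, with 14.3 in A and 18.3 in B.

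The peaks nearest to each limit of the rule varied in strength. Just inside the 1 kb limit lay peaks 1000 bp from Plekhb1, with 19.3 in A and 11.4 in B, and 1002 bp from B3gnt8, with 7.72 and 8.88. Just outside it lay peaks 998 bp from Hunk, with 7.98 in A and 7.87 in B, and 996 bp from Arhgap21, with 20.3 and 9.87. At the outer limit, the peaks 49977 bp from Gm9195 and 49951 bp from Gm38821 had 14.0 and 10.3 in A, against 10.7 and 9.17 in B. Those left out at 50024 bp from Ankrd50 and 50029 bp from Mrtfb had 6.55 and 12.6 in A, against 8.28 and 14.2 in B.

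Intergenic peaks gathered in some stretches between genes. Of 16782 gaps between neighbouring genes with room under the rule, 2471 (14.7%) held at least 1 peak, and 84 held 5 or more. Gaps between divergent genes, whose starts face each other, held a peak in 18.1% of cases, against 13.6% of convergent and 12.6% of tandem gaps. Divergent gaps are also longer, with a median of 34.2 kb against 18 and 21.7 kb, and per Mb they held 6.99 peaks against 6.55 and 5.94. Strand was not known for at least 1 gene of another 5291 gaps. Of these, 16.3% held a peak, and their density was 7.07 peaks per Mb. The median distance from an intergenic peak to the next one was 22.3 kb, and 791 (19.5%) had another within 5 kb.

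One of the fullest gaps is the one beside Lrat, whose promoter drives the Cre used to mark the sorted nuclei. Its enzyme turns retinol into the esters that stellate cells store. It lies at chr3:82892582-82903974, and 104 kb separates its start from that of Fgg, which encodes the gamma chain of fibrinogen, a hepatocyte product. The gap held 10 intergenic peaks, or 96.4 per Mb, of which 3 are nearest to Lrat and 7 to Fgg. The strongest, chr3:82980802-82981173, had 18.7 in A and 17.7 in B, and chr3:82971021-82971440 had 18.3 in A and 12.1 in B. Over the 10 the fold enrichment ran from 6.18 to 18.7 in A (median 8.51) and from 6.07 to 17.7 in B (median 7.32). The 3 assigned to Lrat sit at 42.6, 46.0 and 46.8 kb from its start. Of the 12 entries of A in the gap, the one at the start of Lrat included, 11 were also in B, and all 11 entries of B were in A. Whether a peak here acts on Lrat, on Fgg or on neither was not measured, and the lists do not separate reads of the native locus from reads of the transgene. Rpl10a, the other gene named in the genotype, has no flanking sequence that satisfies the rule.

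**Figure D4:**
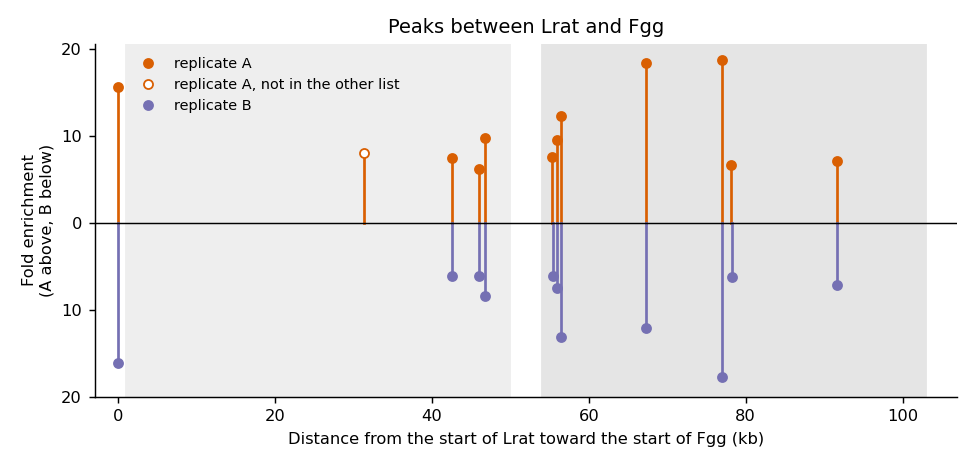
Peak entries between the starts of Lrat (left) and Fgg (right), by distance from the start of Lrat (horizontal axis, kb) and fold enrichment (vertical axis, replicate A above zero and replicate B below). Shaded bands mark 1 to 50 kb from either gene, filled circles are in both lists and the open circle is in A alone. The tallest pair stands 77.0 kb from Lrat, with 18.7 in A and 17.7 in B.

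The gaps with the most peaks were those of Gm40363 to Pdia4 and Tex44 to Ptma, with 11 each. Pdia4 encodes a disulfide isomerase of the endoplasmic reticulum, and Ptma encodes prothymosin alpha. Between Gm40363 and Pdia4 the first 8 peaks follow each other at steps of 4.28 to 5.61 kb and are 194 to 241 bp wide, so they form a row of similar steps. Their fold enrichment ran from 10.7 to 16.5 in A and from 7.25 to 12.9 in B. Gaps with 9 peaks each include those between Hs1bp3 and Rhob, which encodes a small GTPase of the cytoskeleton, between Lrrc32 and Emsy, between Il11ra2 and Ccl19, and between Csf1 and Eps8l3. Lrrc32 encodes the GARP protein that tethers latent TGF-beta, and Csf1 encodes the growth factor of macrophages.

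By gene, 2702 of the 21887 protein-coding genes (12.3%) were nearest to at least 1 intergenic peak. Of these, 1851 had 1 peak, 531 had 2 and 320 had 3 or more. The most was 7, at genes that include Hs1bp3, Ywhaz, Fgg, Tex44 and Lrrc74a. At Ywhaz, which encodes a 14-3-3 adaptor protein, they ran from 6.88 to 15.2 in A and from 6.40 to 14.8 in B. Of the genes with 6 peaks, P4ha1 had all of them on its start side, at 12.3 to 45.3 kb, with 7.55 to 19.4 in A and 6.62 to 9.09 in B. Fam205a2, Gm40363 and Gm5148 also had 6.

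Genes that were open at an end had more of these peaks around them. Among genes with flanking sequence under the rule, 7786 had a replicated peak within 1 kb of an end, and 18.8% of them were nearest to an intergenic peak, against 10.5% of the 11837 without one. Over all 19623 such genes the share was 13.8%. Per Mb of flank the densities were 10.9 and 4.34. In all, 2281 intergenic peaks (56.1%) had a nearest gene that was open at an end. With strand known and only the start counted, the shares were 18% of 6132 genes with an open start and 10.2% of 9591 without.

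Gene lists drawn up for stellate cells had more genes with an intergenic peak than the 12.3% of all genes. For each list the share is set beside the share expected if each of its genes behaved as all genes with a like amount of flank and the same open or closed ends. The lists were chosen with earlier results of these data known, so the counts describe and do not test. Stellate identity genes were nearest to an intergenic peak in 17 of 30 cases (56.7%, interval 39.2 to 72.6%), against 24.3% expected. For stellate transcription factors the count was 19 of 28 (67.9%, against 24.2%), and for immediate early and stress genes 21 of 30 (70.0%, against 23.8%). TGF-beta and BMP signalling had 19 of 34 (55.9%, against 22.7%), fibrogenic activation and matrix 16 of 30 (53.3%, against 24.7%), and vasoactive and pericyte genes 15 of 30 (50%, against 23.2%). Retinoid handling had 8 of 22 (36.4%, against 15.7%). In all 7 the lower end of the interval lay above the expected share. That too is a description, since 18 of the list genes, Lrat and Rxra among them, are in more than 1 list. With only the 10000 entries of highest −log10 q in each list, the identity share was 30%, against 3.22% of all genes, and that of the transcription factors was 17.9%. Without replicate B, which leaves all entries of A, the identity share was 70.0%, against 19.2% of all genes. The expected share was not recomputed in these settings, so their comparison is with all genes, for which the main value is 12.3%. The median was 1 peak per gene in 5 of the 7 lists, 0.5 in the vasoactive list and 0 in retinoid handling, against 0 over all genes.

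**Figure D5:**
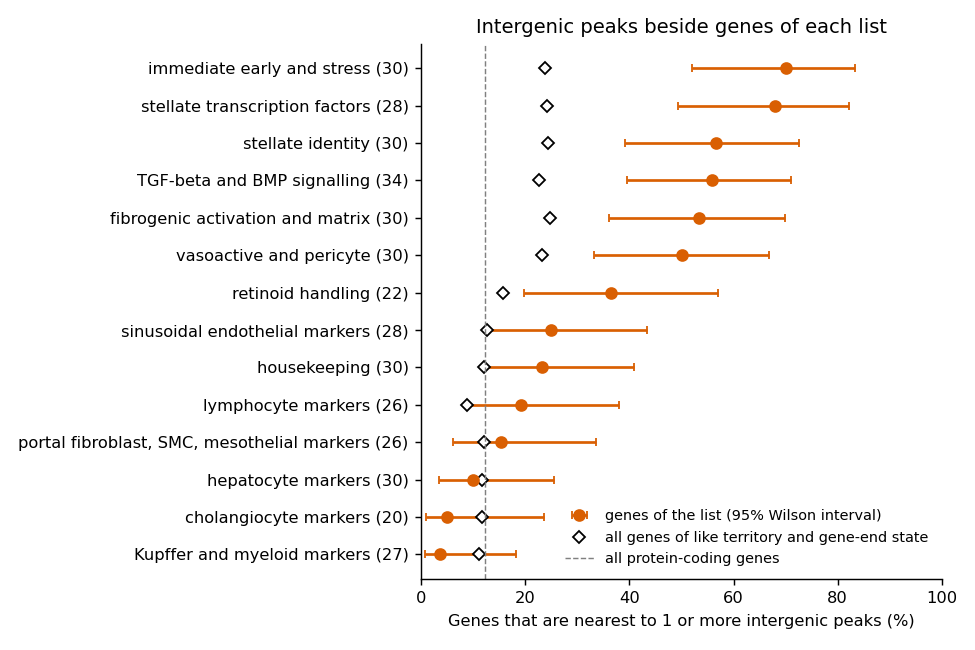
Share of the genes of each list that are nearest to 1 or more intergenic peaks (horizontal axis, %, circles with 95% Wilson intervals), with the number of genes in brackets. Diamonds give the share expected from all genes with a like amount of flank and the same open or closed ends, and the dashed line is the 12.3% of all genes. The 7 stellate and signalling lists lie to the right of their diamonds, and the hepatocyte, Kupffer and cholangiocyte lists lie at or to the left of theirs.

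Among the identity genes, Adcyap1r1 and Cxcl12 had 4 peaks each. Adcyap1r1 encodes the receptor for the neuropeptide PACAP, and its best-ranked peak, 10.5 kb past the gene, had 14.8 in A and 10.4 in B. Cxcl12 encodes a chemokine made by stromal cells, and its best, 18.5 kb past the gene, had 11.6 in A and 9.02 in B. Sod3, for extracellular superoxide dismutase, and Bgn, for the proteoglycan biglycan, had 3 each. Lrat also had 3, Pdgfra had 2, and Reln, Pdgfrb, Hgf and Rgs5 had none in their flanks.

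Of the transcription factors, Rxra stood first with 6 peaks. It encodes the shared partner of the retinoic acid and other nuclear receptors. Of these, 3 lay on the start side and 3 on the termination side, and the best, at chr2:27636708-27637152 and 39.5 kb before the start, had 17.0 in A and 11.8 in B. Nfib, a nuclear factor I gene, Ets2, and Hand2, a bHLH factor of mesenchyme, had 3 each. The best-ranked peak of Ets2 had 12.4 in A and 14.3 in B, that of Nfib 11 and 11.9, and that of Hand2 11.4 and 10.2. In retinoid handling, Rxra was followed by Lrat, Crabp1 and Aldh1a1. Crabp1 encodes a carrier of retinoic acid, and its best peak, 15.0 kb past the gene, was uneven at 17.3 in A and 8.67 in B. Aldh1a1 encodes an enzyme that makes retinoic acid, and its best peak, 25.2 kb before the start, had 14.9 in A and 12.4 in B.

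Matrix and signalling genes followed. Col1a2, which encodes a chain of type I collagen, had 3 peaks, the best of them 16.1 kb before the start at chr6:4489423-4489693 with 14.5 in A and 15.5 in B. Postn, for the matrix protein periostin, had 3 weak ones, up to 7.27 in A and 9.46 in B. Itgb1, for the beta 1 integrin chain, had 2, and one of them, 5.57 kb before the start, reached 21.3 in A and 17.2 in B. Smad6, an inhibitor of BMP signalling, had 5, with the best 44.9 kb before the start at 19.0 in A and 13.2 in B. Id3, a target of BMP signalling, had a peak 26.6 kb before its start with 23.2 in A and 12.9 in B. Tgfbr3, for the co-receptor betaglycan, and Id1 had 2 each.

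Genes of vessel tone and early response genes also had several peaks each. Adra2b, for an alpha-2 adrenergic receptor, and Ednrb, for the endothelin B receptor, had 4 peaks each, with best values of 10.2 in A and 12.3 in B for Adra2b and 13.4 and 16.2 for Ednrb. Abcc9, for a potassium channel subunit of pericytes, had 3, and Agtr1a, for the angiotensin II receptor, had 2. Fos, an AP-1 subunit, had 3, and its best lay 18.5 kb before the start at chr12:85455065-85455642 with 20 in A and 15.7 in B. Ier3, Ier5 and Dusp1, which encodes a phosphatase of MAP kinases, had 3 each. The best of Ier3 had 13.5 in A and 15.3 in B, while that of Dusp1 was uneven with 15.5 in A and 6.85 in B.

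The hepatocyte, Kupffer and cholangiocyte lists had shares below the expected ones, but each interval held the expected share. Of 30 hepatocyte markers 3 (10.0%, interval 3.46 to 25.6%) were nearest to one, against 11.7% expected. Alb, Apoa1, Ttr, Cps1 and Hnf4a had none, and those with any were Cyp2e1 with 2, Slc2a2 and Pck1. Of 27 Kupffer and myeloid markers 1 (3.70%, 0.657 to 18.3%) was nearest to one, against 11.1%. It was Fcgr1, which encodes an Fc receptor, with 16.7 in A and 14.4 in B, while Adgre1, Clec4f, Csf1r and Ptprc had none. Of 20 cholangiocyte markers only Spp1 had any, with 4 peaks, and Krt7, Krt19, Epcam and Sox9 had none. Spp1 encodes osteopontin, and its best peak had 18.4 in A and 12.7 in B.

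The remaining lists had shares between these. Sinusoidal endothelial markers had 7 of 28 (25%, 12.7 to 43.4%), against 12.6% expected, so that the interval began just above it. They were Egfl7 with 4, Gata4 and Maf with 2 each, and Dll4, Flt1, Pecam1 and Bmp2 with 1, while Stab2, Lyve1, Kdr and Cdh5 had none. Gata4 is also in the stellate transcription factor list, and Bmp2 in that of TGF-beta and BMP signalling. Lymphocyte markers had 5 of 26 (19.2%, 8.51 to 37.9%), against 8.75%, led by Klrb1c, Ccr7, Cd2 and Pax5, with none at Cd3e or Nkg7. Portal fibroblast, smooth muscle and mesothelial markers had 4 of 26 (15.4%, 6.15 to 33.5%), against 12.0%, at Cd34 with 4, Smtn with 3, and Des and Msln with 1 each. Des is also in the stellate identity list. Housekeeping genes had 7 of 30 (23.3%, 11.8 to 40.9%), against 12.1%, led by Ywhaz, Actb, Rps3 and Hsp90aa1. Per length of flank they had the most peaks of the 14 lists, with 29.2 per Mb (14 peaks in 0.480 Mb, 7 of them at Ywhaz), against 27.6 for early response genes, 25.2 for stellate identity genes and 18.3 to 23.1 for the other 5 stellate and signalling lists. Endothelial markers had 12.9 per Mb, portal markers 11.4, lymphocyte markers 8.55, cholangiocyte markers 5.49, hepatocyte markers 4.50 and Kupffer markers 1.24. The best peak of Actb, 12.9 kb from the gene, had 15.7 in A and 12.1 in B. Whether nuclei of other cells add to any of these peaks was not tested.

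Some of the intergenic peaks lay at noncoding genes. In all, 1187 intergenic peaks (29.2%) had their centre in a noncoding gene or within 1 kb of its end, and 993 of them (24.4% of the set) did so at lncRNA genes. Of the 619 Mb, 105 Mb (16.9%) lay in the same positions, so the density there was 11.3 peaks per Mb, against 5.59 in the rest. At lncRNA genes it was 12.4 per Mb, against 5.70 outside them. Of 5410 lncRNA genes centred in the flanks, 676 (12.5%) overlapped a peak. Of 4599 pseudogenes 40 (0.870%) did, and of 272 transcribed pseudogenes 33 (12.1%).

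Among the short noncoding genes, tRNA genes had the highest share. Of 262 tRNA genes in the flanks, 50 (19.1%, interval 14.8 to 24.3%) overlapped an intergenic peak, and 88 (33.6%) had one in the gene or within 1 kb. These genes are read by RNA polymerase III from promoters inside the gene. The 50 peaks had median folds of 9.25 in A and 9.44 in B and a median width of 213 bp. The threonine tRNA gene n-TTcgt3, at chr11:79704650-79704721, had the highest in A, with 18.5 in A and 15.2 in B. Many tRNA genes come in near-identical copies, and the peaks at the isoleucine tRNA genes n-TIaat9 and n-TIaat10 had the same width and the same values, 8.76 in A and 8.0 in B. The sources used here do not say how reads with several matches were placed, so values at copies are uncertain.

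Small nuclear RNA genes were covered less often, and their peaks had a higher median than those of tRNA genes in A but not in B. Of 334 in the flanks 12 (3.59%) overlapped a peak, with a median of 15.1 in A and 9.33 in B. Rn7sk, which encodes the 7SK RNA that holds the elongation factor P-TEFb inactive, had 19.0 in A and 18.1 in B at chr9:78175308-78175662. Rnu2-10, a U2 gene, had 21.4 in A and 11.4 in B, and Gm26316, an snRNA gene on the same chromosome, had 24.8 and 8.80. Among 318 small nucleolar RNA genes (0.314%) only Snord104 overlapped one, with 22.7 in A and 16.7 in B. That peak also covers the start window of the lncRNA gene Gm36220.

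The peaks that overlap lncRNA start windows had higher medians than the other intergenic peaks. On the chromosomes with start windows, 178 of 3925 intergenic peaks (4.54%) lay over the start window of a lncRNA gene. They touched 182 lncRNA genes, and of 3908 lncRNA windows centred in the flanks 216 (5.53%) were under a peak. Short overlaps counted too, down to 3 bases at Gm38896 and Bmncr. Of all 218 windows under a peak, 59 had 250 or more bases inside it, so not every peak covers the start itself. The median fold enrichment of the 178 peaks was 12.6 in A and 10.8 in B, against 11 and 9.30 for the other 3747. Spearman's correlation between A and B was 0.730 over them, against 0.566. The peak at 5430416N02Rik had 22.7 in A and 24.1 in B. That at Dancr had 22.6 in A and 20.6 in B, 24.6 kb from Usp46. At Chaserr, 16.9 kb from Chd2, the values were 21.0 in A and 20.5 in B. Snhg8 had 20.1 in A and 23.5 in B, and Snhg15 had 19.0 and 22.1. Mir22hg was lower, with 12.0 in A and 14.7 in B.

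These windows, taken whole with any part outside the peak, were rich in CpG. Taking 1 window per gene, the 182 under a peak had a median GC content of 55.3% and 11 CpG, against 47.7% and 3.0 CpG in the 3065 lncRNA windows of the flanks with none. All 17492 protein-coding start windows had 56.3% and 13.0. The printed window of Chaserr has 72.3% GC and 30 CpG, and that of Mir22hg 54.7% and 12. Each motif was searched on both strands and counted on its own, also where matches of different motifs overlap. The E-box CACGTG was in 12.1% of the windows under a peak, against 5.25% of those without and 7.75% of all protein-coding windows. The AP-1 motif TGANTCA was in 5.49%, against 10.6% and 7.05%. The GATA motif AGATAA was in 6.04%, against 15.3% and 9.86%, and the TEAD motif GGAATG in 16.5%, against 18.4% and 13.4%. The ETS motif ACCGGAAGT was in 0.549%, against 0.457% and 1.44%. The MEF2 motif was in 0.549% in one form and in none in another. Neither the full nuclear factor I site nor the retinoic acid receptor DR5 site was found in the windows under a peak. A match is a description of letters and not a bound site, and it may lie in a part of the window outside the peak. Windows of different GC content also differ in how often AT-rich or CG-rich motifs occur in them, and the part of GC content in these shares was not tested.

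Beside microRNA genes the peaks were moderate. Of 1228 microRNA genes, 25 (2.04%) had an intergenic peak within 2500 bp, at 18 peaks in all. Of the 193 centred in the flanks 20 (10.4%) did, and 4 (2.07%) overlapped one. The peak 87 bp from Mirlet7i had 6.88 in A and 9.79 in B, and the one 354 bp from Mirlet7c-2 and 1070 bp from Mirlet7b had 14.1 and 13.7. The shared-seed pair Mir212 and Mir132 lies by a single peak with 7.46 in A and 9.75 in B. All 6 hairpins of the miR-17-92 cluster lie 1117 to 1873 bp from chr14:115042150-115042554, which had 12.1 in A and 9.49 in B and is 49.8 kb from Gpc5. The peak 2033 bp from Mir22 is the one over the start of Mir22hg. The peak 2292 bp from Mir21a had 13.1 in A and 7.37 in B. The highest beside a well-known microRNA was the one 218 bp from Mir210, with 19.4 in A and 14.5 in B. Mir6236 overlapped a peak of 24 bp with 28.5 in A and 13.4 in B.

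Entries in the same positions that only one replicate had were rarely strong. In A the highest were a 15 bp entry 11 kb from Apbb1ip with 26.8 and entries near Slfn14 and Esp15 with 21.8 and 21.5. In B they were a 5 bp entry 14.8 kb from Dpy19l2 with 27.4 and entries near Ppm1b and H60b with 16.9 and 14.3. In both lists the strongest lone entry was thus a very narrow one.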

How the data were processed

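The data are 2 peak lists, 1 per replicate, without header lines. The build is mm10, per the submitters' processing notes, which list MACS2, HOMER, bedtools, Picard, SAMtools and STAR 2.7.0 without saying what each did. The sources used here do not say whether reads were shifted for Tn5 or how entries were cleaned. The authors deposited for each peak a score, a fold enrichment (a ratio over local background), a −log10 p and a −log10 q, and a summit offset. These deposited values are not scaled between the libraries.

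Coordinates are those of the entry of A, and an overlap of 1 bp sufficed. Positions came from 21887 protein-coding genes of a RefSeq table of GRCm38.p6, the assembly mm10 shares. Strand came from the RefSeq start windows, which hold nothing of chromosome 18. No genome sequence was used here, so motifs were searched in these windows alone and not in the planned peak sequences. The share expected for a list is the mean, over its genes, of the share of all genes in the same quartile of flank length and the same state of the ends. Intervals are 95% Wilson for shares and exact Poisson for densities. The functions were tested on simulated data. Tools were pandas 2.3.3, numpy 2.4.6, scipy 1.17.1 and matplotlib 3.10.9 under Python 3.11.15.

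The named regions are the 10 that rank best in fold enrichment over A and B, the 3 with the highest and the 3 with the lowest ratio of A to B, the 3 widest, those nearest the limits, and the 3 strongest of each replicate alone. The named genes are the 10 with the most peaks, up to 4 per list, and those of the transgenes. Gaps named are the 5 with the most peaks and their ties. Some items that these rules take are not reported here. The noncoding genes, and the list genes named beyond these, were chosen after their values were seen. The members and lists were chosen with earlier results of these data known. Alternatives were stricter entries, other overlaps, coordinates, limits and gene sets, joined pieces, and each replicate alone.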

Additional observations from a re-analysis of the deposited data

How the results depend on the processing

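Of 94 alternative values over 8 results, 63 stayed within the set margin and 31 moved. The comparisons between position classes, gene sides and noncoding genes were not recomputed under these alternatives. Nor were the expected shares of the gene lists. The number of intergenic peaks was 1614 with entries whose −log10 q passed the median of their list and 814 with the 10000 strongest. In that order of settings, the share of replicated peaks was 13.7% and 11.3%, and the median fold enrichment in A 13.9 and 16.1. The median distance was 12.5 and 12.6 kb, and the share within 10 kb 42.1% and 41.9%. The genes nearest to a peak numbered 1316 and 705. The share of stellate identity genes was 36.7% and 30%, against 6.01% and 3.22% of all protein-coding genes. The correlation was 0.685 with the 10000 strongest. With entries and coordinates of B the median fold enrichment was 9.33. An inner limit of 2500 bp gave a median distance of 15.6 kb and 33.6% within 10 kb. An outer limit of 100 kb gave a share of 21.6%, a median distance of 19.3 kb and 32.1% within 10 kb. With all annotated genes these last were 9.18 kb and 52.4%, and the correlation was 0.607. The stellate identity share was then 40%, against 6.13% of all protein-coding genes. With a single replicate and no overlap asked, the ranges were 5120 to 7448 peaks, 17.8 to 20.4% of entries and a fold enrichment of 8.80 to 9.38. They were also a distance of 13.0 to 13.7 kb, 39.1 to 41.3% within 10 kb and 3214 to 4204 genes. The stellate identity share was 60.0 to 70.0% with a single replicate, against 14.7 to 19.2% of all protein-coding genes. The correlation has no value then. An alternative chosen after seeing the data left out X and Y, pieces of peaks and entries under 100 bp. It gave 3972 peaks and a stellate identity share of 53.3%, against 12.1% of all protein-coding genes. No paired analysis was possible because the study has 1 group. Read depth is unknown, nearest genes are positions and not targets, and values at repeated gene copies depend on how reads with several matches were placed.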

Other observations

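Intergenic peaks were unevenly spread over the chromosomes. Chromosomes 4 and 11 held the most per Mb of flank, 9.14 and 9.11, against 6.56 over all. Chromosome X held 81, or 1.78 per Mb, and chromosome Y held 5, or 0.219 per Mb. On chromosome X the median fold enrichment was 11.1 in A and 9.62 in B, close to that of the whole set. The share of the intergenic entries of A that overlapped B was lowest on chromosome 11, at 42.8%, and among the other autosomes it was highest on chromosome 18, at 63.0%.

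Some intergenic peaks had twins. In 10 sets, 21 peaks (0.517%) had exactly the same width and the same fold enrichment in A and in B as another peak, and 15 of the 21 lie on chromosome 4 between positions 41910749 and 42629761. Genes nearest to these include the chemokine genes Ccl21d and Ccl21b and the related Fam205a2, Fam205a3 and Fam205a4. The gap between Il11ra2 and Ccl19, which held 9 intergenic peaks, starts just past this stretch, with peaks from 42666870 to 42750747. Short arrays of small nuclear RNA genes were also covered. On chromosome 1 peaks lay over Gm25360, Gm23472, Gm24497 and Gm25939 near Pecr, with 9.04, 18.1, 17.5 and 14.5 in A, against 10.5, 7.37, 6.68 and 12.2 in B. On chromosome 11 they lay over Gm26316, Gm24950, Gm23971 and Rnu2-10, with 24.8, 12.7, 12.6 and 21.4 in A, against 8.80, 8.30, 8.58 and 11.4 in B.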
